A study of Mus musculus with 4 samples.

Results

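Ly6a, Ly6c1, Ly6c2, Ly6d, Ly6e and Thy1 encode 6 small proteins that are held at the surface of lymphocytes by a lipid anchor. They were chosen by name, and all 6 were found among the 31053 genes of 4 single-cell RNA-seq libraries of mouse thymus. Their levels were followed over 17390 thymic cells. One library came from a wild-type (WT) FVB/N mouse of 6 weeks and one from a preleukemic Tal1/Lmo2 mouse of 6 weeks. A further 2 came from Tal1/Lmo2 mice of 3 months with T-cell acute lymphoblastic leukemia, named T-ALL#1 and T-ALL#2. The transgenes were driven by the proximal Lck promoter, which is active in thymocytes, and every mouse was of the FVB/N strain. Each library came from 1 thymus, and viable singlets had been sorted after lysis of red blood cells.

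Proteins of the Ly6 family share a compact fold held by disulfide bonds and carry a glycosylphosphatidylinositol (GPI) anchor in place of a membrane-spanning segment. Several are used as antigens to tell stages of blood cell development apart. Ly6a (Sca-1) marks hematopoietic stem cells and activated T cells. Ly6c1 and Ly6c2 encode the Ly-6C antigens of monocytes, NK cells and memory T cells. Ly6d marks lymphoid progenitors and B cells, and Ly6e (Sca-2, thymic shared antigen-1) is abundant on immature thymocytes. Thy1 (CD90) is the pan-thymocyte antigen. It is GPI-anchored but has an immunoglobulin fold and is not a Ly6 relative by sequence.

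In mm10, 5 of the genes lie on chromosome 15. Ly6d (ENSMUSG00000034634, minus strand) spans chr15:74762056-74763620 and Ly6e (ENSMUSG00000022587, plus strand) chr15:74955051-74959905. Ly6a (ENSMUSG00000075602, minus strand) spans chr15:74994877-74998031. Ly6c1 (ENSMUSG00000079018, minus strand) lies at chr15:75044018-75048830 and Ly6c2 (ENSMUSG00000022584, minus strand) at chr15:75108158-75111970. Thy1 (ENSMUSG00000032011, plus strand) lies apart, at chr9:44043384-44048579.

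Ly6c1 and Ly6c2 are nearly the same gene by coding sequence, and reads of one could be taken for the other, so both are shown. Of the 396 coding bases of each, 387 are identical (97.7%). The first 300 coding bases, exonic and read from GENCODE transcripts on the GRCm38 genome, hold 7 of the 9 differing bases, which are in capitals.
Ly6c1: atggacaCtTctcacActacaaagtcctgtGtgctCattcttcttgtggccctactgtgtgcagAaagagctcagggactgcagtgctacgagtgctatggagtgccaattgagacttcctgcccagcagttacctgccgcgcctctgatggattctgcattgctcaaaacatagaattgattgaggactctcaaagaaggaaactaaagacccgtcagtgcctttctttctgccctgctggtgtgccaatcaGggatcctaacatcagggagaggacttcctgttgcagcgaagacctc
Ly6c2: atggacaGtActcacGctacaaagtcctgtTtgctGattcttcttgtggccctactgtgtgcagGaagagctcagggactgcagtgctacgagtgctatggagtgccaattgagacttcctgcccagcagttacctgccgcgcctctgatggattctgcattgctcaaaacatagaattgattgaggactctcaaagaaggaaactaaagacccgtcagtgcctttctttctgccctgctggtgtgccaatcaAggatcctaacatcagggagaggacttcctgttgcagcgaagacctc
Of the 745 windows of 100 bases in this Ly6c1 transcript, 114 (15.3%) occur unchanged in Ly6c2. They end between 170 and 620 bases from the 3′ end of the transcript. Cell Ranger counts only reads that map to a single place, so a read within such a window is counted for neither gene. None of the other 4 members shared a window with another gene.

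The region upstream was read for the letters CANNTG, the E-box core that factors of the Tal1 class recognize. RefSeq gives 2 starts for each gene in GRCm38.p6, and windows ran from 250 bases before to 50 bases after a start. The windows of Ly6c1 held 4 and 2 matches and those of Ly6c2 held 2 each, so a difference in number depends on the Ly6c1 start. The window of the start farther upstream is shown for each gene, with the matches in capitals. The motif reads the same on both strands.
Ly6c1, chr15:75048788-75049087, minus strand: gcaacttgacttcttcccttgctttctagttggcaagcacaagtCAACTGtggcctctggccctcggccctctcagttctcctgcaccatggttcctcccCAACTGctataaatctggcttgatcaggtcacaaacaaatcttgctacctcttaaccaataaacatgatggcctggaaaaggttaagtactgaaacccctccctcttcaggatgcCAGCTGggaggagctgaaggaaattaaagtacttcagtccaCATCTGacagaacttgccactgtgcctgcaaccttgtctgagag
Ly6c2, chr15:75111922-75112221, minus strand: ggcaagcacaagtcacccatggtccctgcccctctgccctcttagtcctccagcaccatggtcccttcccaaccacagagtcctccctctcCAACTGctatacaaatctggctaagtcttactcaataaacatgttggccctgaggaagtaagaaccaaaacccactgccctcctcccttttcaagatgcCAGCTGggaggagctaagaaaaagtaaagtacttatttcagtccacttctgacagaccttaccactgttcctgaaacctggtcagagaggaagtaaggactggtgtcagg
Of 32851 such promoter windows, 72.3% held the motif at least once, 39.6% held it 2 or more times and 6.49% held it 4 or more times. The promoter table covered 2 of the 6 members.

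The libraries kept 4115 WT, 5530 preleukemic, 5770 T-ALL#1 and 1975 T-ALL#2 cells. Their median depth was 3686, 4859, 8725.5 and 17581 UMIs a cell. Tal1 was at 0 UMIs in WT, at 417 counts per 1000000 UMIs (CPM) in preleukemic cells, and at 68.4 and 234 CPM in T-ALL#1 and T-ALL#2. The WT and preleukemic libraries, labelled male, held Xist at 1437 and 1893 CPM and 1 and 5 UMIs of 4 Y-linked genes, against their sex labels. T-ALL#1, labelled female, held Xist at 1932 CPM, and T-ALL#2, labelled male, at 0.0828 CPM with 4413 Y-linked UMIs, so T-ALL#2 alone was male by its RNA. Cd3e stood between 339 and 749 CPM in all 4 libraries. Between 7 and 17 cell barcodes of each library recurred in another. WT and preleukemic are 1 library each, so differences between libraries carry 95% counting intervals and no test. Mouse, age and depth cannot be told apart from the condition, nor sex from what sets T-ALL#2 apart. The cell call differed too. The lowest called barcode held 3422 UMIs in T-ALL#2, against 500 in WT and 503 each in preleukemic and T-ALL#1. Cells of low depth were thus left out of T-ALL#2 alone, and its counts came from Cell Ranger 4 in place of 3.0.2. Whether this moved the levels, detection shares or cell counts of T-ALL#2 was not tested.

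Ly6c1 and Ly6d stood higher in the preleukemic than in the WT library, Thy1 stood lower, and T-ALL#2 held the least Ly6a, Ly6c2 and Ly6d. Ly6c1 was at 2.15 CPM in WT (95% Poisson interval 1.56 to 2.88), 102 in preleukemic, 27.9 in T-ALL#1 and 14.0 in T-ALL#2. Preleukemic cells held the most, and no interval overlapped another. The leukemias stood 13.0-fold (9.63 to 17.9) and 6.54-fold (4.80 to 9.12) above WT.

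Ly6d was at 112 CPM in WT (108 to 117), 231 in preleukemic (226 to 236), 208 in T-ALL#1 (205 to 211) and 12.8 in T-ALL#2 (11.7 to 14.1). The 2 leukemias stood far apart, with T-ALL#1 16.2-fold (14.8 to 17.8) above T-ALL#2. No statement about leukemia as a group can be made for this gene. Preleukemic cells stood 2.06-fold (1.97 to 2.16) above WT.

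Thy1 was at 326 CPM in WT (318 to 334), 126 in preleukemic (123 to 130), 250 in T-ALL#1 (246 to 253) and 186 in T-ALL#2 (181 to 190). Preleukemic cells held the least, 2.58-fold (2.49 to 2.68) below WT, and both leukemias lay between. Ly6e was at 736 CPM in WT (725 to 748), 1197 in preleukemic (1186 to 1208), 1306 in T-ALL#1 (1298 to 1315) and 1090 in T-ALL#2 (1079 to 1101). All 3 Tal1/Lmo2 libraries stood above WT, by 1.48- to 1.77-fold.

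Ly6a was at 15.8 CPM in WT (14.1 to 17.6) and 14.4 in preleukemic (13.2 to 15.6), intervals that overlap, at 8.74 in T-ALL#1 (8.07 to 9.46) and at 1.46 in T-ALL#2 (1.10 to 1.91). Ly6c2 was at 10.9 CPM in WT (9.55 to 12.5), 19.3 in preleukemic (18.0 to 20.7), 4.49 in T-ALL#1 (4.01 to 5.02) and 0.773 in T-ALL#2 (0.513 to 1.12). Both were lowest in T-ALL#2, whose cells were called at 3416 UMIs. Apart from Ly6a in WT and preleukemic, no 2 libraries had overlapping intervals for the same member. The share of all genes without overlap was not counted, so this cannot be read as a trait of the members.

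**Figure D1:**
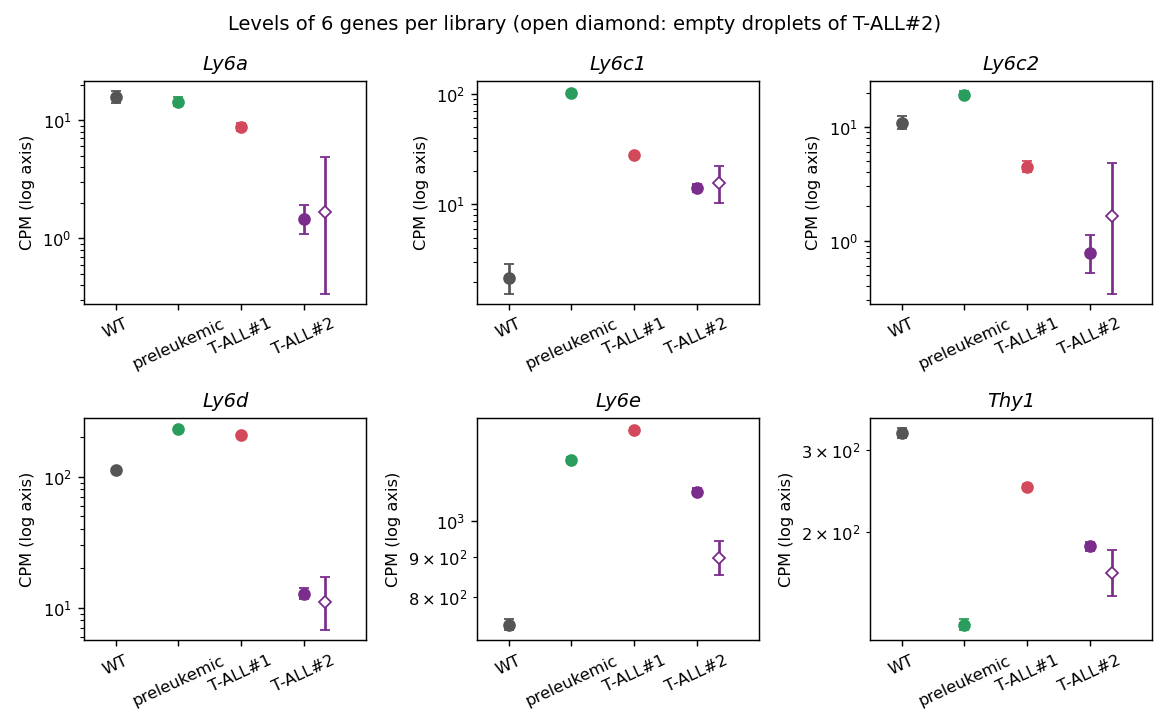
CPM of each gene (log axis) in the WT, preleukemic, T-ALL#1 and T-ALL#2 libraries, with 95% Poisson intervals for counting error. The open diamond is the level in empty droplets of T-ALL#2, beside which the cells' level of Ly6a, Ly6c1, Ly6c2 and Ly6d does not stand apart, while Ly6c1 is highest in preleukemic cells at 102 CPM.

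T-ALL#2 was deposited with its empty droplets, so the free RNA of that library could be measured. In 1187978 barcodes with fewer than 100 UMIs, Ly6e stood at 897 CPM and Thy1 at 163, and the cells stood 1.22-fold (1.16 to 1.28) and 1.14-fold (1.01 to 1.28) above these levels. For Ly6d the ratio of cells to empty droplets was 1.16 (0.745 to 1.92), for Ly6c1 0.910 (0.622 to 1.38), for Ly6a 0.885 (0.287 to 4.43) and for Ly6c2 0.467 (0.144 to 2.40). As a share of all UMIs, these 4 genes in T-ALL#2 cells were thus not distinguishable from free RNA. Each level is a share of its own pool, so the ratio cannot tell whether the cells' UMIs came from free RNA. Single cells still stood out, with up to 25 Ly6d UMIs in one cell and 12 of Ly6c1, and the top 20 cells held 50.5% of the Ly6d UMIs and 29.9% of the Ly6c1 UMIs.

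Counted by a fold of at least 2 with intervals apart, over 8769 genes at 10 CPM or more in any library, 2 members were higher in preleukemic than in WT cells (Ly6c1 and Ly6d) and 1 was lower (Thy1). Of all genes, 4.87% were higher and 5.61% lower by that rule. Against preleukemic cells, both leukemias held less of 2 members, Ly6c1 and Ly6c2 (11.5% of all genes were lower), and more of none (3.07% were higher). Against WT, both leukemias held more Ly6c1 (4.74% of genes were higher) and less Ly6c2 (14.9% were lower). With trimmed-mean (TMM) factors over the libraries, which raise the log2 ratio to WT by 0.35 for T-ALL#1 and by 0.59 for T-ALL#2, Ly6e joined the genes higher in both leukemias than in WT and Ly6c2 left the lower ones.

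The share of cells with a UMI separated a gene spread over most cells from one held by few. Ly6e was detected in 70.7% of WT, 87.9% of preleukemic, 97.9% of T-ALL#1 and 99.5% of T-ALL#2 cells. After thinning each cell to 2000 UMIs, the shares were 58.2, 76.9, 89.1 and 85.5%. Ly6c1 was detected in 0.826, 21.8, 14.8 and 11.7% of cells, and in 0.416, 12.9, 3.82 and 2.58% after thinning. Ly6d was detected in 10.9, 21.2, 35.2 and 7.14% of cells, and in 8.83, 14.8, 20.9 and 2.13% after thinning. For Thy1 the shares were 57.5, 36.8, 85.5 and 89.0%, and 38.5, 16.7, 44.7 and 31.5% after thinning. The preleukemic library held the smallest share of Thy1-positive cells by both measures. Thinning kept 75.9% of the WT cells, 93.7% of the preleukemic, 98.4% of the T-ALL#1 and 100% of the T-ALL#2 cells. T-ALL#2 could lose none, as its cells had been called at 3416 UMIs.

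As a background cell type, the few cells with B markers (15 preleukemic, 12 T-ALL#1 and 5 T-ALL#2 cells, at a median of 4954, 4303 and 3911 UMIs) should lack Thy1 and Ly6c1. They held 1, 2 and 0 UMIs of Thy1 and no UMI of Ly6c1, which in 15 cells allows a share of cells with a UMI of up to 21.8% (Clopper-Pearson), a limit on detection and not on expression. Each of these cells held Ly6d, a gene that B cells are known to express, at 1520, 1505 and 1867 CPM. They accounted for 1.55, 0.627 and 8.60% of the Ly6d UMIs of their libraries. No WT cell passed the limit of 3 B markers and 5 UMIs.

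Ly6c2 was a gene of few cells. Its UMIs lay mostly in cells holding at least 3 of the NKT and innate lymphocyte markers Zbtb16, Nkg7, Il2rb, Klrd1, Klrk1, Xcl1 and Ccl5. These were 61 cells (1.48%) of the WT library, 97 (1.75%) of the preleukemic, 32 (0.555%) of T-ALL#1 and 1 cell of T-ALL#2. Such cells under 3416 UMIs could not be counted in T-ALL#2. They held 186 of 224 Ly6c2 UMIs in WT (83.0%), 416 of 756 in preleukemic (55.0%), 262 of 317 in T-ALL#1 (82.6%) and 0 of 28 in T-ALL#2. Inside these cells Ly6c2 stood at 342, 555 and 819 CPM in the first 3 libraries.

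Without these cells and those with B, myeloid or erythroid markers, Ly6c2 was at 1.10 CPM in WT (0.692 to 1.67), 8.60 in preleukemic (7.69 to 9.58), 0.784 in T-ALL#1 (0.591 to 1.02) and 0.774 in T-ALL#2. Preleukemic cells then stood 7.78-fold above WT (log2 2.96, 2.34 to 3.65), and the leukemias no longer stood apart from WT. Ly6c1 hardly used the innate cells, which held 0, 2, 5 and 0 of its UMIs, and stayed at 2.21, 104, 27.9 and 14.1 CPM without them. The limit of 3 markers was set after values had been seen. The summed level of the 7 innate markers was 169, 144, 26.8 and 6.60 CPM over the libraries, and of the 7 Xcl1 alone was at 0 UMIs, in T-ALL#2.

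Markers of gamma-delta T cells also differed between libraries. The 6 of them (Trdc, Tcrg-C1, Tcrg-C4, Sox13, Cd163l1 and Blk), each found in every library, summed to 225 CPM in WT, 1720 in preleukemic, 94.6 in T-ALL#1 and 276 in T-ALL#2. Cells with at least 3 of them numbered 58, 1870, 155 and 566, or 1.41, 33.8, 2.69 and 28.7% of the cells. By surface staining the authors saw no rise of gamma-delta thymocytes in the preleukemic thymus. For preleukemic DN3 cells they propose germline transcription of these receptor genes. Cells with the markers thus need not be gamma-delta T cells. In the preleukemic cells with the markers Ly6c1 was at 75.5 CPM (71.6 to 79.5), Ly6d at 159 and Thy1 at 103. Each stood below its level in the remaining cells. Without the cells with the markers Ly6c1 was at 127 CPM (122 to 132) in preleukemic and 1.67 (1.15 to 2.34) in WT cells. Ly6d was then at 298 and 100.3, and Thy1 at 148 and 328. The differences between the preleukemic and WT libraries in these 3 genes were thus also present outside the cells with gamma-delta markers.

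**Figure D2:**
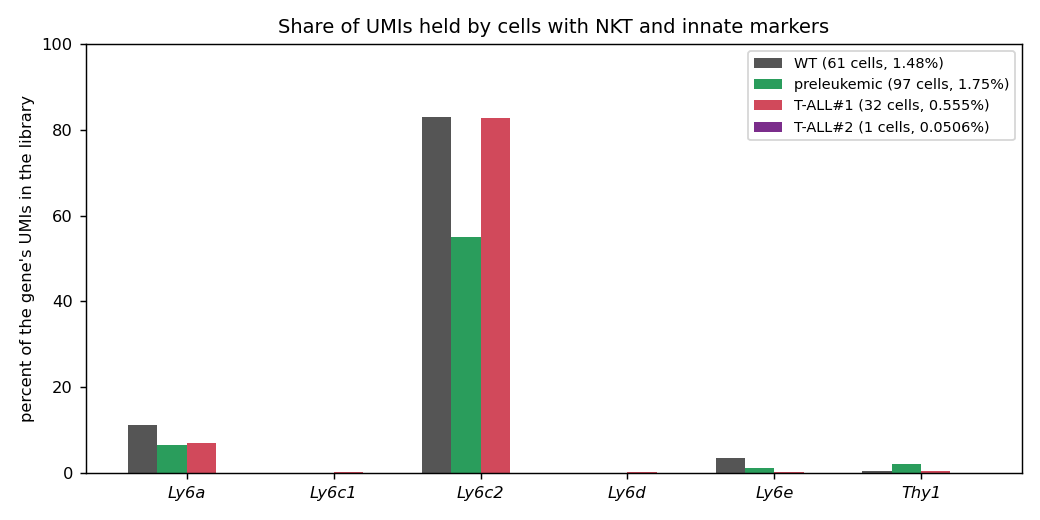
Percent of each gene's UMIs in a library (bars) held by cells with at least 3 NKT and innate markers, whose number and share of the library are in the legend. The Ly6c2 bars reach 83.0, 55.0 and 82.6% in WT, preleukemic and T-ALL#1, and the bars of the other genes stay at or under 11.1%.

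Cells were next sorted by whether they held a UMI of Cd4, Cd8a and Il2ra (CD25), which follow the order of thymocyte stages. Cells without Cd4 and Cd8a but with Il2ra approximate the DN2 to DN3 stages, and cells with Cd4 and Cd8a the double-positive (DP) stage. A cell without a UMI of a gene may still express it, and the depth of the libraries differs. The authors also reported less Cd4 and Cd8a mRNA in preleukemic thymocytes, which were still found in their DP clusters. The same class may thus hold different stages in WT and Tal1/Lmo2 libraries. Only sums of at least 20 cells are described.

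In WT, Ly6d followed these stages over a wide range. It was at 607 CPM in the 44 Cd4- Cd8a- Il2ra+ cells, 192 in 2006 Cd4+ Cd8a+ Il2ra- cells, 61.2 in 721 Cd4- Cd8a+ Il2ra- cells and 3.98 in 889 Cd4+ Cd8a- Il2ra- cells. In preleukemic cells the order was another, with 93.3 CPM in 457 Cd4- Cd8a- Il2ra+ cells, 468 in 1242 Cd4- Cd8a+ Il2ra- cells and 688 in 188 Cd4+ Cd8a+ Il2ra- cells. T-ALL#1 had a like order, with 76.3 CPM in 388 Cd4- Cd8a- Il2ra+ cells and 338 in 1891 Cd4+ Cd8a+ Il2ra+ cells. In T-ALL#2 the classes stood at 35.3 CPM or less, but for 51.8 CPM in 45 Cd4+ Cd8a- Il2ra- cells.

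Ly6c1 in WT had 44 UMIs, 12 of them in the 44 Cd4- Cd8a- Il2ra+ cells (27.9 CPM, 14.4 to 48.8). In the preleukemic library it reached every class, at 46.7 CPM in Cd4- Cd8a- Il2ra+ cells, 80.6 in 3510 Cd4- Cd8a- Il2ra- cells, 154 in Cd4- Cd8a+ Il2ra- cells and 255 in Cd4+ Cd8a+ Il2ra- cells. The preleukemic and WT levels in Cd4- Cd8a- Il2ra+ cells had overlapping intervals (41.1 to 52.8 in preleukemic), while in Cd4+ Cd8a+ Il2ra- cells WT stood at 0.901 CPM (0.389 to 1.78). T-ALL#1 peaked elsewhere, at 104 CPM in 172 Cd4+ Cd8a- Il2ra- cells, and so did T-ALL#2, at 54.0 in its 45 Cd4+ Cd8a- Il2ra- cells.

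Thy1 in WT was at 552 CPM in Cd4+ Cd8a+ Il2ra- cells and at 79.0 in Cd4+ Cd8a- Il2ra- cells. Preleukemic Cd4+ Cd8a+ Il2ra- cells held 305 CPM and the far more numerous Cd4- Cd8a- Il2ra- cells 73.8. The WT cells of that last class held 64.8 CPM (53.4 to 78.0), which overlaps the preleukemic interval (70.2 to 77.7). In Cd4- Cd8a- Il2ra+ cells the intervals lay apart, at 293 CPM (244 to 349) in WT and 98.8 (90.7 to 108) in preleukemic cells. Preleukemic Cd4+ Cd8a- Il2ra- cells stood at 98.5 CPM (67.8 to 138), which overlaps WT (71.6 to 86.9). The Cd4- Cd8a- cells were 3967 of the preleukemic cells and 424 of the WT cells. Whether the mix of cells had a part in the lower preleukemic level was not tested. In the leukemias Thy1 varied little, from 200 to 296 CPM over the classes of T-ALL#1 and from 167 to 231 over those of T-ALL#2. Ly6e was likewise flat in the 3 Tal1/Lmo2 libraries, between 1030 and 1628 CPM, while in WT it ran from 308 in Cd4+ Cd8a- Il2ra- to 1228 in Cd4- Cd8a- Il2ra+ cells.

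Ly6a in WT was highest in the Cd4- Cd8a- Il2ra+ cells at 69.8 CPM (47.1 to 99.6). In the preleukemic library it was highest in 41 Cd4+ Cd8a- Il2ra- cells at 125 CPM. In both leukemias the Cd4+ Cd8a- Il2ra- cells also held the most, at 29.3 CPM in T-ALL#1 and 19.4 in T-ALL#2. Ly6c2 was at 66.0 CPM in WT Cd4- Cd8a- Il2ra- cells and at 0 UMIs in the Il2ra+ ones. In preleukemic and T-ALL#1 it was highest in Cd4- Cd8a+ Il2ra- cells, at 38.9 and 24.1 CPM. They held 52.0 and 73.5% of its UMIs there, and are in neither the Il2ra nor the Cd4 and Cd8a contrast below.

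**Figure D3:**
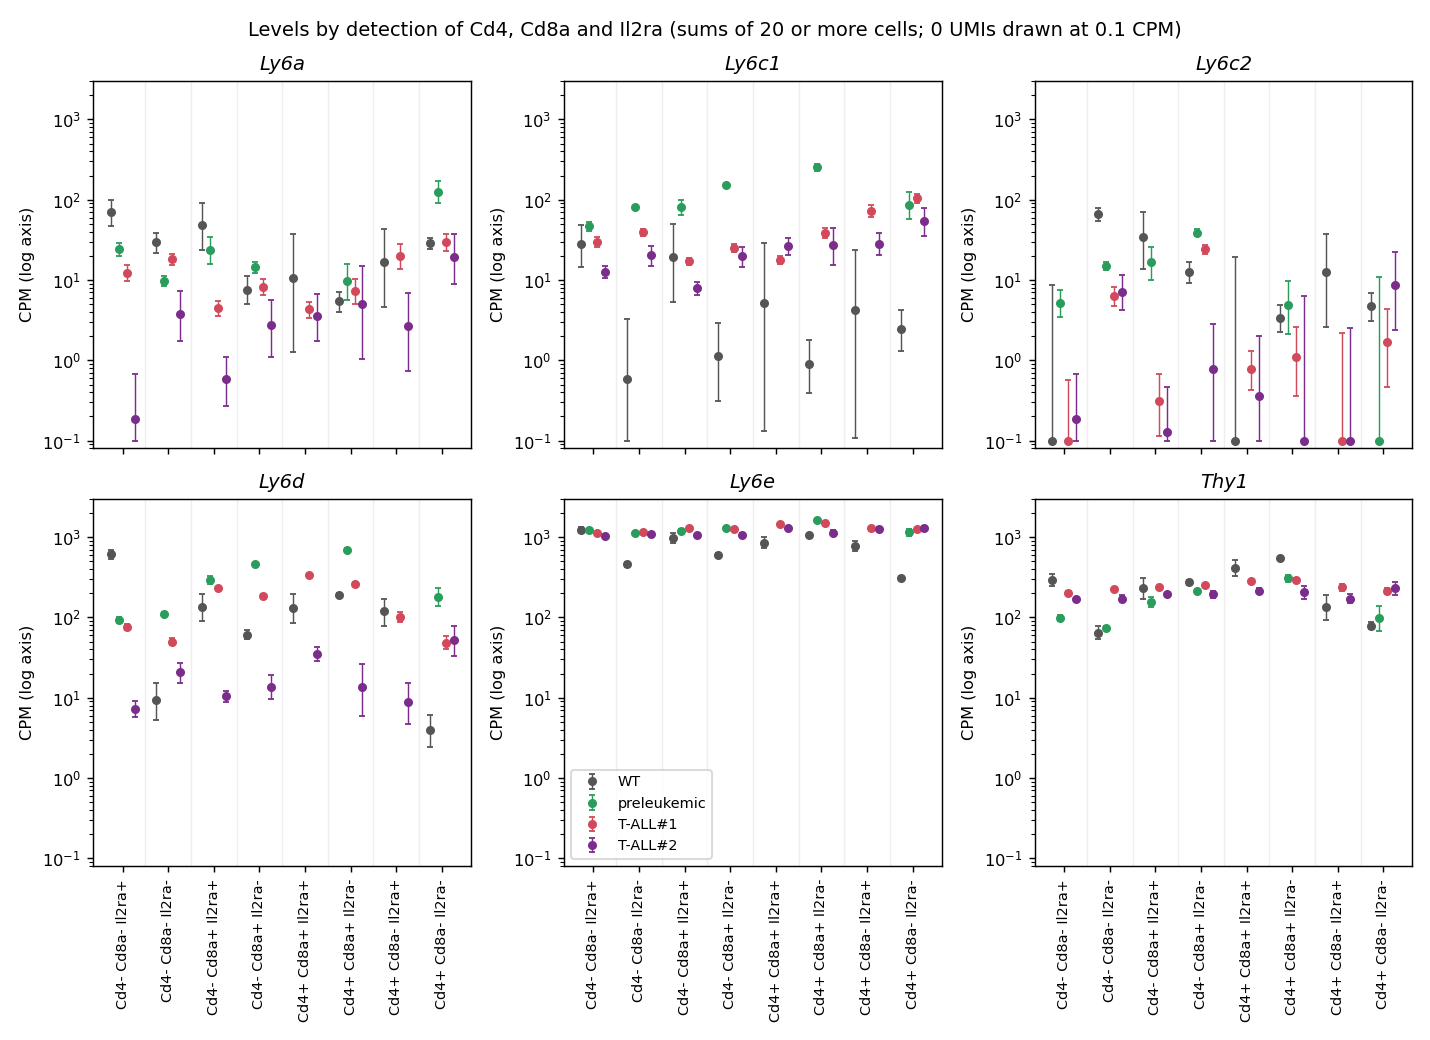
CPM of each gene (log axis) in sums of at least 20 cells by detection of Cd4, Cd8a and Il2ra, colored by library, with 95% Poisson intervals; a sum with 0 UMIs is drawn at 0.1 CPM. Ly6d ranges from 607 to 3.98 CPM across WT classes, and preleukemic Ly6c1 stands at 255 CPM in Cd4+ Cd8a+ Il2ra- cells.

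Whether detection of Il2ra went with a difference shared by the 4 libraries was tested with edgeR's quasi-likelihood test, in Cd4- Cd8a- cells and with library as a block. No member passed at an adjusted p of 0.05, among 11525 genes of which 0% were called higher and 0.104% lower. At an unadjusted p under 0.05 there were 1950 genes, 1 of them a member (Ly6c2), while DESeq2 called 167 genes higher and 151 lower and no member. Ly6c2 was at 0, 5.14, 0 and 0.188 CPM in Il2ra+ cells of WT, preleukemic, T-ALL#1 and T-ALL#2, and at 66.0, 15.2, 6.33 and 7.17 in Il2ra- cells. It stood below with Il2ra in each library, with a fitted log2 difference of -3.15 ± 0.83 (SE, n = 4 pairs of sums, edgeR adjusted p = 0.19). In the 2 libraries with 0 UMIs, the limit of 3 UMIs would be 6.98 CPM in WT and 0.461 in T-ALL#1.

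The other members went apart between libraries. Ly6d stood 65.5-fold above with Il2ra in WT (607 against 9.26 CPM) but below in T-ALL#2 (7.25 against 20.7, a log2 ratio of -1.51). Thy1 was at 293 CPM with and 64.8 without Il2ra in WT, and at 167 and 171 in T-ALL#2. The fitted log2 differences were 0.83 ± 1.31 for Ly6d and 0.53 ± 0.40 for Thy1 (adjusted p of 0.80 and 0.56 by edgeR). The median log2 difference was 0.36 over the members and -0.01 over all genes.

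Between Cd4+ Cd8a+ and Cd4- Cd8a- cells no member passed either, and 0.336% of 12199 genes were called in each direction. Ly6d was at 190, 663, 322 and 31.5 CPM in Cd4+ Cd8a+ cells of WT, preleukemic, T-ALL#1 and T-ALL#2, against 128, 107, 61.1 and 9.70 in Cd4- Cd8a- cells. It stood above in all 4 libraries, by 1.48- to 6.20-fold (log2 1.80 ± 0.40, adjusted p = 0.16 by edgeR). Without WT the same test gave 2.24 and an adjusted p of 0.025, and Ly6d also passed by DESeq2 and after thinning. Thy1 was at 549, 310, 288 and 214 CPM against 110, 79.1, 214 and 168, again above in all 4 (log2 1.20 ± 0.43, edgeR adjusted p = 0.31).

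Ly6e was at 1062, 1608, 1459 and 1271 CPM in Cd4+ Cd8a+ cells against 614, 1133, 1151 and 1041, with a log2 difference of 0.42 ± 0.13 (edgeR adjusted p = 0.19). Ly6c2 was below in all 4, with 3.31 against 52.8 CPM in WT and 0.297 against 1.46 in T-ALL#2 (log2 -2.74 ± 0.49, edgeR adjusted p = 0.069). DESeq2, low-cycling cells alone, no filter on low counts, no upper limit on genes and thinning each brought Ly6c2 past the threshold. Ly6a stood below in 3 libraries and above in T-ALL#2 (log2 -1.14 ± 0.80, edgeR adjusted p = 0.58), and after thinning the edgeR fit gave -5.12 and an adjusted p of 6.2e-05. Thinning set the classes anew from the thinned counts, so the cells compared differed. Ly6a was then detected in 58 WT, 112 preleukemic, 80 T-ALL#1 and 10 T-ALL#2 cells over all classes, so the thinned fit rests on few cells. Ly6c1 also went either way. Ly6c1 stood 3.33-fold above in preleukemic Cd4+ Cd8a+ cells and below in WT, with a log2 ratio of -2.60 that rested on 9 UMIs against 13. The median log2 difference was 0.35 over the members and -0.01 over all genes.

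S1pr1 encodes the receptor with which mature thymocytes leave the thymus. A UMI of it was found in 466 WT, 225 preleukemic, 122 T-ALL#1 and 52 T-ALL#2 cells. Ly6a was higher in these cells in every library, at 41.2 against 10.8 CPM in WT, 88.9 against 11.6 in preleukemic, 24.6 against 8.51 in T-ALL#1 and 5.57 against 1.38 in T-ALL#2. The folds were 3.82, 7.64, 2.89 and 4.04, the last resting on 4 UMIs. The fitted log2 difference was 2.21 ± 0.24 (n = 4 pairs of sums, adjusted p = 1.3e-05 by edgeR), and it passed without each library in turn.

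Ly6e was lower with S1pr1, at 401 against 802 CPM in WT, 970 against 1205 in preleukemic, 854 against 1313 in T-ALL#1 and 1032 against 1091 in T-ALL#2 (log2 -0.52 ± 0.15, edgeR adjusted p = 0.020). The difference was largest in WT, and in T-ALL#2 the interval of the ratio reached 0. It did not pass without the preleukemic library (adjusted p = 0.089), without T-ALL#1 (adjusted p = 0.16), in low-cycling cells alone (0.20) or after thinning (0.21). These were 2 of 6 members, against 6.82% of 12333 genes called higher and 8.95% lower. In WT, S1pr1-positive cells had a median of 6614 UMIs and the others 3306, and in T-ALL#2 12597.5 and 17787. Whether depth played a part was not tested beyond the thinned fit.

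Ly6c2 was at 17.0 against 9.74 CPM in WT, 79.5 against 17.1 in preleukemic, 67.9 against 3.57 in T-ALL#1 and 1.39 against 0.760 in T-ALL#2 (log2 2.38 ± 0.68, edgeR adjusted p = 0.11). Without the innate-marker cells the fit gave 3.46 and an adjusted p of 0.013, and without T-ALL#1 1.64 and 0.00032. Ly6d was at 19.1 against 130 CPM in WT and 77.3 against 236 in preleukemic cells, but at 148 against 209 in T-ALL#1 and 18.1 against 12.7 in T-ALL#2 (log2 -1.35 ± 0.50, edgeR adjusted p = 0.18). After thinning it passed, at -1.47 with an adjusted p of 0.00037. Thy1 was at 112 against 368 CPM in WT and at 256 against 250 in T-ALL#1 (log2 -0.60 ± 0.23, edgeR adjusted p = 0.13), and without T-ALL#1 the adjusted p was 0.022. For Ly6c1 the fit gave 0.53 ± 0.20 (edgeR adjusted p = 0.086). Without preleukemic cells it was 0.89, with an adjusted p of 0.038.

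**Figure D4:**
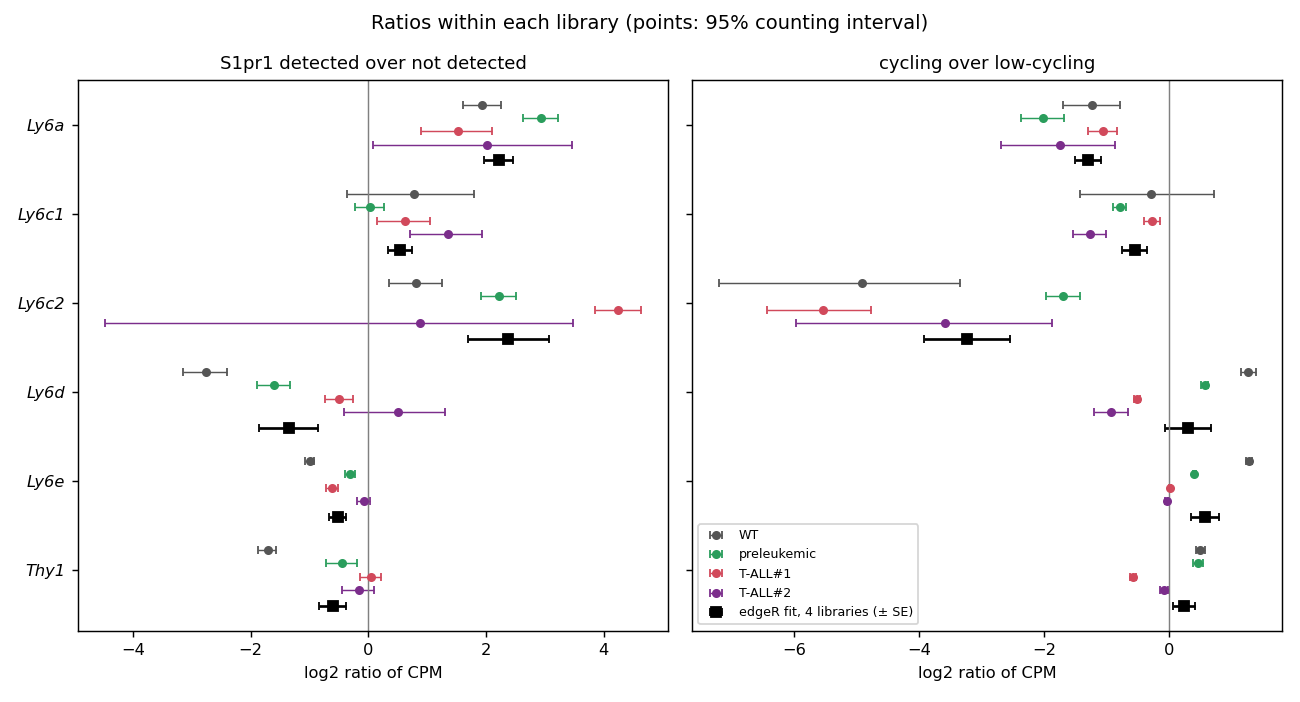
Log2 ratio of CPM within each library (points, 95% counting intervals) and the edgeR fit over 4 libraries (black squares, ± SE), for cells with against without S1pr1 (left) and cycling against low-cycling cells (right). Ly6a lies to the right of 0 in all libraries at left and to the left of 0 in all at right, while Ly6d in the right panel lies on either side.

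Cycling cells were those with more than 72.9 UMIs of S and G2/M genes per 10000, a limit taken from leukemic DN3-gated cells. They were 15.2% of WT, 24.6% of preleukemic, 40.7% of T-ALL#1 and 43.0% of T-ALL#2 cells, and were deeper in every library (a median of 20047.5 against 4922 UMIs in T-ALL#1). Ly6a was lower in them, at 8.06 against 18.9 CPM in WT, 5.23 against 21.1 in preleukemic, 6.50 against 13.6 in T-ALL#1 and 0.747 against 2.50 in T-ALL#2. All 4 libraries showed it (log2 -1.29 ± 0.21, edgeR adjusted p = 0.0015), and it passed without each library in turn.

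Ly6c2 was lower too, at 0.504 against 15.2 CPM in WT, 8.47 against 27.4 in preleukemic, 0.291 against 13.5 in T-ALL#1 and 0.140 against 1.69 in T-ALL#2 (log2 -3.24 ± 0.69, edgeR adjusted p = 0.011). It passed without each library in turn but not with the filter on low counts removed (adjusted p = 0.086). The cycling sums held 3, 141, 14 and 3 UMIs. The background was wide here, with 22.9% of 12723 genes called higher and 26.7% lower, so 2 of 6 members lower is near the share of all genes.

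Ly6d took opposite directions in different libraries. It was at 191 in cycling against 79.6 CPM in low-cycling WT cells and 284 against 191 in preleukemic cells, but at 183 against 262 in T-ALL#1 and 9.38 against 17.8 in T-ALL#2. The shared log2 difference was 0.30 ± 0.37 (edgeR adjusted p = 0.54). Ly6e was at 1265 against 520 CPM in WT and 1391 against 1053 in preleukemic cells, and nearly level in T-ALL#1 (1311 against 1298) and T-ALL#2 (1078 against 1107), with log2 0.58 ± 0.22 (edgeR adjusted p = 0.069). Without T-ALL#2 it was 0.75, with an adjusted p of 0.035. Ly6c1 gave -0.55 ± 0.20 (edgeR adjusted p = 0.055) and, without T-ALL#1, -0.77 with an adjusted p of 0.028. Thy1 gave 0.24 ± 0.18 (edgeR adjusted p = 0.29). The median log2 difference was -0.15 over the members and -0.09 over all genes.

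Within Cd4- Cd8a- Il2ra+ cells alone, where cells of other stages are fewer, cycling went with lower Ly6a (log2 -2.23, edgeR adjusted p = 8.8e-11) and lower Ly6c1 (-0.97, adjusted p = 5.7e-05) and with higher Ly6d (0.51, adjusted p = 0.018). There 16.5% of 10127 genes were called higher and 17.7% lower, and edgeR put 1 shared spread on all genes in that fit. Ly6c2 had too few UMIs there to be tested. Lower Ly6a and higher Ly6d in cycling cells were not seen in every library of the narrower gate described next. In the narrower DN3 gate (no UMI of Cd4, Cd8a or Cd44 and Il2ra above 0.5 on the natural log scale of UMIs per 10000), Ly6c1 was at 69.5 CPM (58.5 to 82.0) in 262 low-cycling and 25.1 (19.0 to 32.6) in 122 cycling preleukemic cells. In T-ALL#2 it was at 24.4 (19.1 to 30.7) in 198 low-cycling and 7.34 (5.36 to 9.83) in 236 cycling cells. In T-ALL#1 it was level, at 31.4 (22.8 to 42.4) in 166 and 29.7 (24.2 to 36.1) in 151 cells.

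Ly6a in the same gate was at 24.8 against 5.82 CPM in preleukemic cells, and its intervals overlapped in T-ALL#1 (6.58 against 8.83 CPM). T-ALL#2 held 1 UMI of Ly6a in each state, and the 3 cycling WT cells held 0. Ly6d was at 53.4 against 98.0 CPM in T-ALL#1. Its intervals overlapped in preleukemic cells (67.0 against 86.5 CPM), in WT (690 against 593) and in T-ALL#2 (7.44 against 6.69). Thy1 in T-ALL#1 was at 274 against 173 CPM. In preleukemic cells Thy1 stood the other way, at 81.4 (69.4 to 94.9) against 107 CPM (93.9 to 122), with intervals that overlapped. The WT gate held 35 low-cycling and 3 cycling cells. The low-cycling ones held Ly6d at 690 CPM (605 to 784), against 67.0 in preleukemic, 53.4 in T-ALL#1 and 7.44 in T-ALL#2 low-cycling cells. They held Ly6a at 72.8 CPM (47.1 to 108), against 24.8, 6.58 and 0.338. In the gate, the WT library thus held the most of both genes.

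**Figure D5:**
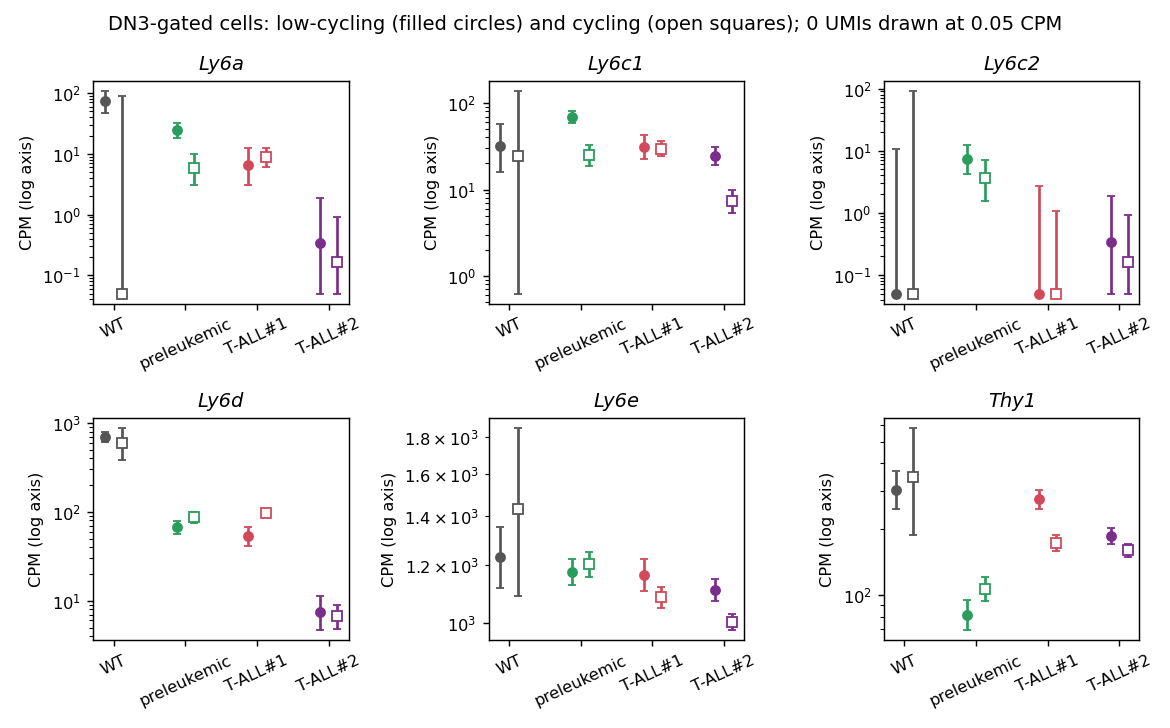
CPM of each gene (log axis) in DN3-gated cells of each library, low-cycling (filled circles) and cycling (open squares), with 95% Poisson intervals; 0 UMIs are drawn at 0.05 CPM. Ly6c1 is lower in cycling cells of the preleukemic library (25.1 against 69.5 CPM) and of T-ALL#2 (7.34 against 24.4), and WT low-cycling cells hold the most Ly6d (690 CPM).

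Members shared cells unequally at a fixed depth of 2000 UMIs. In the preleukemic library, 278 of the 667 cells with Ly6c1 also held Ly6d (41.7%, 37.9 to 45.5, Clopper-Pearson), against 10.9% (9.99 to 11.8) of the cells without Ly6c1. In T-ALL#1 the shares were 20.3% (15.1 to 26.3) and 20.9% (19.8 to 22.0). In WT, 57.2% of the 276 Ly6d cells held Thy1, against 36.7% of the others, and 10.3% (3.89 to 21.2) of the 58 Ly6a cells held Thy1, against 39.1%. In the preleukemic library the share with Thy1 was 24.1% (16.5 to 33.1) of 112 Ly6a cells, against 16.6% (15.6 to 17.6) of the others. Ly6c2 was found in 0 of 13 WT, 30 of 667 preleukemic, 1 of 217 T-ALL#1 and 0 of 51 T-ALL#2 cells with Ly6c1. In the preleukemic library this was 4.50% (3.05 to 6.36), against 2.04% (1.65 to 2.49) of the cells without Ly6c1, and in T-ALL#1 0.461% against 0.513%.

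The genes whose pattern was most like each member were taken by Pearson correlation of log2(CPM + 5) over 30 sums of library and class, among genes with a mean of at least 20 CPM. Sums of one library share its depth and cells, so the values are a description. Ly6c2 followed Ccl5 (r = 0.91), Nkg7, Xcl1, Gimap3 and Ctsw, of which the first 3 are in the innate marker list. Ly6d followed Arpp21 (0.86), Cd24a, Slc24a5, Dntt and Tapt1. Dntt encodes the terminal transferase of antigen receptor rearrangement and Cd24a a GPI-anchored antigen of immature thymocytes.

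Ly6c1 followed Dpp4 (0.82), Myh10, Prdx2, Angpt1 and Ryk. Ly6a followed 1600014C10Rik (0.85), Parp9, Rps27rt, Laptm4a and Dguok. Ly6e followed Desi1 (0.90), Zfp704, Bcl7c, Endou and Ifi204, and Thy1 followed Prrt1 (0.79), Wdr12, Rapgef3, Cerk and Nudt4. Among the members themselves the highest correlation was 0.69, of Ly6c1 with Ly6e, and that of Ly6c1 with Ly6c2 was -0.04.

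Of 33 other genes of the Ly6 and uPAR family in the matrices, a list that also held the TGF-beta pseudoreceptor gene Bambi, 4 reached 10 CPM in any library. Ly6k was at 40.4 CPM in WT, 83.1 in preleukemic, 67.8 in T-ALL#1 and 215 in T-ALL#2. Lypd6b was at 10.7, 19.2, 0.935 and 0.386 CPM. Of 8 genes of this list tested by S1pr1 detection, 1 was higher and 2 lower, and of 9 tested by cycling, 1 was higher and 2 lower. Over all genes the shares were 6.82% higher and 8.95% lower with S1pr1 and 22.9% higher and 26.7% lower by cycling, and the list's counts are too small to be read against them. Ly6k was lower with S1pr1 (log2 -0.73, edgeR adjusted p = 0.0071) and higher in cycling cells (0.42, adjusted p = 0.0498).

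Of 27 tested genes whose products build, attach or remodel the GPI anchor, 1 was higher and 0 were lower with S1pr1 (6.82 and 8.95% of all genes), and 4 were higher and 5 lower by cycling (22.9 and 26.7% of all genes). Dpm3, a subunit of the enzyme that makes the mannose donor, was at 105, 115, 67.0 and 81.7 CPM over the 4 libraries. A list of other GPI-anchored surface proteins also held Ceacam1, which spans the membrane. Of 14 genes of it tested, 6 were higher and 0 lower with S1pr1, against 6.82 and 8.95% of all genes. In cycling cells 9 of 16, Ceacam1 among them, were lower and 1 higher, against 26.7 and 22.9% of all genes. Cd52, a GPI-anchored antigen of mature lymphocytes, was at 1614, 279, 118 and 71.2 CPM and was higher with S1pr1 (log2 1.90 ± 0.23, edgeR adjusted p = 0.00039).

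Ly6a and Ly6e are known to be inducible by interferon. Of 27 other interferon-inducible genes tested, 19 were higher and 0 lower with S1pr1 (6.82 and 8.95% of all genes), with a median log2 difference of 1.04 against -0.05 over all genes. By cycling, 22 of 28 were lower and 1 higher, against 26.7 and 22.9% of all genes. In both leukemias 22 of 23 stood lower than in WT by a fold of 2, against 14.9% of all genes, among them Ifi27l2a (659 CPM in WT, 83.1 in preleukemic, 11.2 in T-ALL#1 and 4.03 in T-ALL#2). Ly6a was likewise higher with S1pr1 and lower in cycling cells, whereas Ly6e was lower with S1pr1. Against WT, Ly6a was lower in both leukemias but missed the fold of 2 in T-ALL#1 (8.74 against 15.8 CPM). Ly6e stood above its WT level of 736 CPM in each leukemia, at 1306 CPM (T-ALL#1) and 1090 CPM (T-ALL#2). Whether interferon had a part in the level of either gene was not tested.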

How the data were processed

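Droplet single-cell RNA-seq (10x Genomics, 3′ end) was made by the authors from 1 thymus per library. The deposited values are UMI counts per gene and cell, written by Cell Ranger 3.0.2, or by Cell Ranger 4 for T-ALL#2 (version per the file headers), on mm10 per the labels. T-ALL#2 was deposited unfiltered (1791965 barcodes), and its cells were called at 3416 UMIs. Which library used which version of the chemistry was not given in the sources used here. The authors sequenced on a HiSeq platform.

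Cells with more than 500 genes, under 10% mitochondrial UMIs and fewer genes than the library's mean plus 3 SD were kept (70.0 to 79.4% of those called). The upper limit was the only treatment of doublets. The members and gene lists were chosen with earlier results of these data known. The lists were typed from textbook knowledge, and named genes were the 6 members, the 5 most correlated genes of each and at most 4 of each list by mean CPM.

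UMIs were summed per library and class and tested with edgeR 4.0.16 in R 4.3.3 (quasi-likelihood, TMM, filterByExpr, library as block, Benjamini-Hochberg over all genes tested, the genes that define a class left out). DESeq2 1.42.0 was an alternative. The block was used because both sums of a library come from the same animal, and without it no member passed in any contrast. On simulated counts, 78 to 100% of genes changed 2-fold and all of those changed 4-fold were recovered (100% in each contrast). The changed genes were drawn from the better expressed ones, and every gene was given the same spread. These shares thus do not hold for members of low level or wide spread. Ly6c2 was not called by Il2ra at a fitted fold of 8.85.

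CPM is counts per 1000000 UMIs of the summed cells. UMI counts at the 3′ end were not scaled by length, so levels of different genes were not compared in the results (mean CPM served only to choose which list genes to name). Intervals are 95% (Poisson, Clopper-Pearson or conditional binomial) and, like the floor of 3 UMIs, cover counting error only. P-values over the 4 pairs of sums measure the spread between these libraries. Alternatives changed the size factors, filter, depth, cells and libraries used. In the thinned fits the classes and the cycling state were set anew from the thinned counts.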

Additional observations from a re-analysis of the deposited data

Results flagged for a closer look

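In 7 comparisons, each library of one group moved one way and each of the other the opposite way. The rule was applied to the members alone, and how often other genes meet it was not counted. WT and preleukemic are 1 library each, so these differences between groups were not tested.

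With Il2ra in Cd4- Cd8a- cells, Ly6a stood above in WT (69.8 against 29.5 CPM) and in preleukemic cells (24.1 against 9.64) but below in T-ALL#1 (12.3 against 18.3) and T-ALL#2 (0.188 against 3.80). The log2 effect differed by 3.69 between WT and the mean of the leukemias and by 3.77 between preleukemic and the leukemias, and the T-ALL#2 values rest on 2 and 9 UMIs. Ly6c1 stood above with Il2ra in WT alone (27.9 against 0.579 CPM, 12 UMIs against 1). Its effect differed by 6.38 from preleukemic cells and by 6.14 from the leukemias, values that turn on that single UMI.

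In Cd4+ Cd8a+ against Cd4- Cd8a- cells, Ly6c1 stood below in WT and above in preleukemic cells, a log2 difference of effects of -4.34 (WT minus preleukemic). With cycling, Ly6d stood above in WT and preleukemic cells and below in both leukemias. The effects differed by 1.99 (WT minus leukemic) and by 1.29 (preleukemic minus leukemic) on the log2 scale. In T-ALL#2 the CPM of Ly6d was not distinguishable from that of empty droplets, which cannot tell whether the cells' UMIs came from free RNA.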

How the results depend on the processing

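Library as a block paired the sums of one animal, and with no replicate block the count of members passing was 0 for S1pr1 and 0 for cycling, in place of 2 each. The counts of members that passed also moved with the filter on low counts removed (1 for Il2ra, 1 for Cd4 and Cd8a, 1 for cycling), with DESeq2 (2 for Cd4 and Cd8a), in low-cycling cells alone (1 for Cd4 and Cd8a, 1 for S1pr1), with no upper limit on genes (1 for Cd4 and Cd8a), after thinning (3 for Cd4 and Cd8a), and, by an alternative chosen after seeing the data, without innate-marker cells (4 for S1pr1). Over all genes DESeq2 called 167 higher and 151 lower of 5050 tested for Il2ra, in place of 0 and 12 of 11525. For Cd4 and Cd8a it called 157 and 194 of 12066, in place of 41 and 41 of 12199. With no filter these were 382 and 549 of 17868 for Il2ra, 110 and 175 of 18535 for Cd4 and Cd8a and 2916 and 3256 of 19283 for cycling. After thinning, 186 and 370 of 10034 genes were called for Cd4 and Cd8a. For S1pr1 they were 228 and 219 of 10233, in place of 841 and 1104 of 12333. For cycling they were 1941 and 2146 of 10742, in place of 2911 and 3399 of 12723. With no replicate block they were 0 and 0 of 10566 for Il2ra and 0 and 1 of 11211 for Cd4 and Cd8a. For S1pr1 they were then 0 and 0 of 11251, and for cycling 691 and 232 of 11700. Low-cycling cells gave 202 and 396 of 11190 for Cd4 and Cd8a and 407 and 260 of 11875 for S1pr1. No upper limit on genes gave 61 and 86 of 12277 for Cd4 and Cd8a. Without innate-marker cells, 817 and 1027 of 12200 were called for S1pr1. Leaving out each library in turn gave 0 members for Il2ra, 0 to 1 for Cd4 and Cd8a (Ly6d without WT), 2 to 3 for S1pr1 and 2 to 3 for cycling. Of all genes, 0 to 8 were then higher and 3 to 58 lower for Il2ra, of 10634 to 11330. For Cd4 and Cd8a these were 0 to 73 and 1 to 102, of 11276 to 12100. For S1pr1 they were 551 to 884 and 612 to 1572, of 11948 to 12581, and for cycling 1946 to 2820 and 2230 to 3235, of 12214 to 12515. Preleukemic over WT, members higher became 1 with no upper limit on genes (Ly6d left), 3 with cells weighted equally, after thinning and without innate-marker cells (Ly6c2 joined), 3 in low-cycling cells (Ly6e joined) and 4 at a fold of 1.5 (both joined). With TMM factors, 1 member was higher in both leukemias than in preleukemic cells (Thy1), 2 were higher than in WT and 0 lower. In low-cycling cells, 2 were higher than in WT (Ly6e joined) and 0 lower. The count lower than in WT was 0 with cells weighted equally, after thinning and without innate-marker cells, and 2 at a fold of 1.5. Leaving out each leukemia gave 2 to 4 members lower than preleukemic, 0 higher than preleukemic, 1 higher than WT and 1 to 3 lower than WT, the larger counts without T-ALL#1. The share of all genes under these settings of the library comparisons is not given. These counts thus cannot be read as a trait of the members. Directions that reversed were not of calls. For Il2ra, Ly6a was -0.17 by DESeq2, -0.32 after thinning and from -0.31 (without preleukemic cells) to 0.74 over libraries left out, Ly6c1 was 0.29 by DESeq2, and Ly6d was -0.10 without WT and up to 1.53. For Cd4 and Cd8a, Ly6c1 was -0.14 by DESeq2 and from -0.45 (without preleukemic cells) to 0.72 over libraries left out. For S1pr1, Ly6c1 was -0.14 after thinning. For cycling, Ly6c1 was 0.0042 after thinning, Ly6d from -0.055 (without WT) to 0.62 and Thy1 -0.0061 in Cd4- Cd8a- Il2ra+ cells alone. The cause of these moves was not tested. Depth limits Ly6c1 in WT (44 UMIs), Ly6c2 in T-ALL#2 (28 UMIs) and Ly6a there (53 UMIs).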
